A study of Mus musculus with 6 samples.

Results

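*Zfp365*, *Plk2*, *Got1l1* and *Zfp750* are 4 of the 38293 genes listed in the gene counts, and 36 of the 355320 exon bins belong to them. They were chosen from the comparison of hnRNP L deficient with wt cells, as genes with next to no reads in wt cells and clear reads in hnRNP L deficient cells. Their levels in both genotypes, the fold change and the gap between the genotypes were therefore fixed by the choice and are given as a description, with no test. The questions asked of them were how far from 0 the wt level was, and whether the reads covered the whole gene or some of its exon bins only.

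RNA came from FL Lin-cKit+ cells, which are fetal liver cells sorted for c-Kit and against lineage markers and hold hematopoietic stem and progenitor cells. The E14.5 embryos, on a C57BL/6 background, were 3 wt and 3 with the genotype VavCre+hnRNP L fl/fl. Each library is from a single embryo. In the latter, here called hnRNP L deficient, Cre recombinase under the Vav promoter removes the floxed *Hnrnpl* alleles in hematopoietic cells. Whether other cells of the liver keep them was not tested. The labels call the control genotype wild-type, whereas a read-track legend of the study writes its control as hnRNP L fl/fl. The labels name the source as fetal liver cells, the tissue as whole embryo, and the sorted fraction is given by the methods.

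hnRNP L is an RNA-binding protein that binds CA-rich RNA and controls splicing, stability and translation of its targets. The 4 genes are not a family and have their best-known roles in different tissues. *Zfp365* encodes a zinc finger protein that binds Disc1 at the centrosome, is mainly known from brain, and has a role in the stability of telomeres and fragile sites. *Plk2* encodes a polo-like kinase that acts in centriole duplication and in neurons, is made early after mitogen stimulation, and is a known target of the transcription factor p53. *Got1l1* encodes a protein related to the cytosolic aspartate aminotransferase Got1 and is mainly known from testis. *Zfp750* encodes a zinc finger protein that drives terminal differentiation of epidermal cells downstream of p63.

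The promoters are shown because each gene is nearly silent in one genotype, and because p53 and hnRNP L each have a sequence that can be searched for. RefSeq windows of GRCm38.p6 from 250 bases before to 50 after the annotated start were at hand for 2 of the 4 genes, *Zfp365* and *Plk2*. The 250 bases before the start are at chr10:67912663-67912912 on the minus strand for *Zfp365* and at chr13:110394794-110395043 on the plus strand for *Plk2*, with a GC content of 61.6% and 68.4%. Capitals mark TATAAA and TGACGTCA, the latter the letters of the cyclic AMP response element, and both motifs were chosen after the sequences had been seen.
Zfp365 promoter: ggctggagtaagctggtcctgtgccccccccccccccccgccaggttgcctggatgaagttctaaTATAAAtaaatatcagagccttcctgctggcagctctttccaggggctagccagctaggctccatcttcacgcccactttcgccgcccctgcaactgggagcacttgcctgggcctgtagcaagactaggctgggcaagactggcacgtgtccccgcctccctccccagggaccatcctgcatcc
Plk2 promoter: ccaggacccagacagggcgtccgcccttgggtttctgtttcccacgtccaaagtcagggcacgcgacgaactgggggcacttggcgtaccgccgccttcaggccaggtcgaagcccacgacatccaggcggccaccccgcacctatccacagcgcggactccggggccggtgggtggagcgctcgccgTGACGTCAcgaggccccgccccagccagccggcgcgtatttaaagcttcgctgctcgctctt

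In the whole 300-base windows, searched on both strands, the p53 half-site was found in neither gene and in 8.36% of all 32851 windows. CACACACA was also found in neither, and in 4.09% of all windows. TATAAA begins 185 bases before the start of *Zfp365* and is in 13.6% of all windows. TGACGTCA begins 62 bases before the start of *Plk2* and is in 1.79% of all windows. A motif that is not in these windows may lie elsewhere in the gene, so the search says nothing about binding.

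CA repeats were also looked for in the spliced GENCODE M21 transcripts *Zfp365*-201, *Plk2*-201, *Got1l1*-201 and *Zfp750*-201, called the reference transcripts below. *Zfp365*-201, of 4259 bases, holds a run of 17 CA units in its 3′ UTR, and 1.91% of 12487 tested genes with a coding transcript have a run at least as long in their longest one. In *Plk2*-201, of 2800 bases, the longest run is 4 CA units in the coding part, a length reached by 17.9% of these genes. It is shown with 10 bases on each side and the run in capitals, because it lies in the coding part of one of the 4 genes.
Plk2 coding CA run: gatataacgaCACACACAataaggtgtc
The longest runs in *Got1l1*-201 (1356 bases) and *Zfp750*-201 (3232 bases) are 3 CA units, a length reached by 63.8% of the genes. The 4 transcripts thus differ in their longest CA run, from one that few genes have to one that most have.

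The libraries held between 55952160 and 76157226 reads on genes. *Hnrnpl* itself fell from 537 ± 13.2 CPM (SD, n = 3 embryos) to 267 ± 23.2 CPM (SD, n = 3), where CPM is the read count relative to the library size after TMM scaling. At this depth 1 read is worth between 0.0134 and 0.018 CPM and 3 reads between 0.0402 and 0.054 CPM. *Kit* had 522 ± 120 CPM in wt and 341 ± 23.1 CPM in hnRNP L deficient cells, and 6 genes of the lineages removed by the sort summed to between 0.404 and 1.76 CPM in all 6 libraries. Wt replicate 2 stood apart from the other wt libraries, with Pearson correlations across genes of 0.963 and 0.977 against 0.985 between the other two, and with the highest sum of 7 macrophage markers (90.7 CPM, against 20.2 CPM in the lowest wt library and 5.44 to 9.66 CPM in the hnRNP L deficient ones). None of the 4 genes had its highest wt value in that library. RNA of a sorted population cannot tell fewer cells of a type from less RNA per cell, and p-values below measure the spread between these embryos.

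*Zfp365* (ENSMUSG00000037855, chromosome 10 of GRCm38 from 67886103 to 67912662, minus strand) was closest to silent in wt cells. It had 1, 1 and 0 reads in wt replicates 1 to 3 and 386, 361 and 486 reads in hnRNP L deficient replicates 1 to 3. These are 0.018, 0.0167 and 0 CPM against 6.0, 5.52 and 6.51 CPM. The wt libraries were all below the level of 3 reads, and the hnRNP L deficient libraries lay close together, with a coefficient of variation of 8.21%. The upper bound of the exact Poisson interval, at a confidence level of 95%, was at most 0.1 CPM in the wt libraries and covers counting error only. Pooled over libraries, 2 wt reads stood against 1233, a ratio of 568 after scaling with an exact interval of 157 to 4692, again for counting error only. The log2 fold change was 8.89 (standard error 0.49), and its exact size depends on how 0 reads are treated.

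*Plk2* (ENSMUSG00000021701, chromosome 13 of GRCm38 from 110395046 to 110400844, plus strand) had the most reads of the 4 genes in hnRNP L deficient cells. It had 28, 4 and 3 reads in wt replicates 1 to 3, or 0.504, 0.0667 and 0.0413 CPM. Reads in hnRNP L deficient replicates 1 to 3 were 830, 1046 and 1282, or 12.9, 16.0 and 17.2 CPM. Wt replicate 1 was alone among the wt libraries in being clearly above 0, with an exact Poisson interval of 18.6 to 40.5 reads against upper bounds of 10.2 and 8.77 reads in the other two. The log2 fold change of 6.28 (standard error 0.87) was 8.13 without wt replicate 1. The pooled ratio was 83.1 with an exact interval of 59.6 to 120 for counting error, which leaves out this spread between wt embryos.

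*Got1l1* (ENSMUSG00000039720, chromosome 8 of GRCm38 from 27197459 to 27223828, minus strand) was even among the wt libraries, with 3, 2 and 2 reads or 0.054, 0.0334 and 0.0275 CPM in wt replicates 1 to 3. Reads in hnRNP L deficient replicates 1 to 3 were 161, 169 and 281, or 2.5, 2.59 and 3.76 CPM. Replicate 3 was the highest hnRNP L deficient library, at 1.5 times the lowest. The log2 fold change was 6.23 (standard error 0.40) and the pooled ratio 80.4 (exact interval 38.8 to 201).

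*Zfp750* (ENSMUSG00000039238, chromosome 11 of GRCm38 from 121510978 to 121519333, minus strand) had 0, 3 and 6 reads in wt replicates 1 to 3, or 0, 0.05 and 0.0826 CPM. Reads in hnRNP L deficient replicates 1 to 3 were 134, 144 and 231, or 2.08, 2.2 and 3.1 CPM. Wt replicate 3, the deepest wt library, was the only one above the level of 3 reads. The log2 fold change of 5.67 (standard error 0.68) was the smallest of the 4, and the pooled ratio was 52.1 (exact interval 27.2 to 115). In all 4 genes every hnRNP L deficient library lay above every wt library, as it did in 22.7% of all genes tested, and since the genes were chosen on this contrast nothing is read from it.

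**Figure D1:**
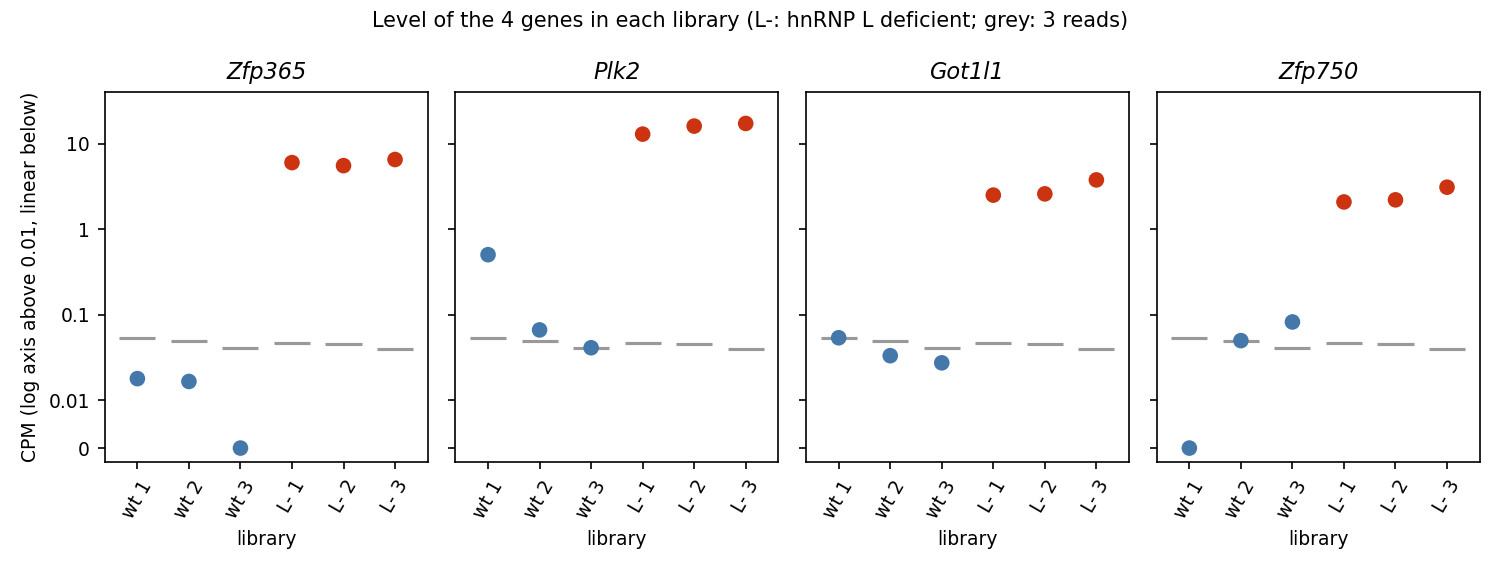
CPM (vertical axis, logarithmic above 0.01 and linear below) of the 4 genes in each library (horizontal axis), with wt in blue, hnRNP L deficient (L-) in red and the level of 3 reads as a grey bar. The wt libraries sit at 0 to 0.0826 CPM except wt replicate 1 of *Plk2* at 0.504 CPM, and the hnRNP L deficient libraries at 2.08 to 17.2 CPM.

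Per kilobase of reference transcript the hnRNP L deficient levels were 5.49 ± 0.79 CPM per kb (SD, n = 3) for *Plk2*, 2.18 ± 0.52 for *Got1l1*, 1.41 ± 0.12 for *Zfp365* and 0.761 ± 0.17 for *Zfp750*. No neighbours in this order overlapped between libraries. In the wt libraries *Zfp365*, at 0 to 0.00423 CPM per kb, lay below every library of *Got1l1* (0.0203 to 0.0398) and of *Plk2* (0.0148 to 0.18). The ranges of *Plk2*, *Got1l1* and *Zfp750* (0 to 0.0256) overlapped, as did those of *Zfp750* and *Zfp365*, so the rest of the wt order could not be told.

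The wt level can be placed among all genes. No wt read at all was found for 19091 genes, or 49.9% of those listed, so genes without reads were common and the 4 genes were not at the bottom of the list. Among the 14396 genes that passed the expression filter and were tested, *Zfp365* ranked 12th from the lowest wt mean, *Got1l1* 28th, *Zfp750* 34th and *Plk2* 568th. In hnRNP L deficient cells the mean was above that of 36.6% of the tested genes for *Zfp365*, 46.2% for *Plk2*, 30.5% for *Got1l1* and 28.8% for *Zfp750*. They thus reached the lower middle of the genes tested and not the levels of abundant transcripts, the median of tested genes being 20.3 CPM. Genes so low in wt cells were tested only if hnRNP L deficient libraries lifted them over the filter, so the tested genes at this wt level are not a neutral background.

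How unusual the pattern was can be described by the range the genes span, a wt mean of at most 0.204 CPM and a log2 fold change of at least 5.67. Apart from the 4 genes, 12 of the 14396 tested genes fell in this range. The 4 genes had the 4 highest hnRNP L deficient means among the 16, from 2.46 CPM for *Zfp750*, and the next was 1.66 CPM for *Ckmt1*, a mitochondrial creatine kinase. The 4 genes set this range and were chosen for clear reads in hnRNP L deficient cells. Nothing is therefore read from these ranks, nor from that of *Zfp365* below. Just outside the range were *Eda2r*, by its wt mean of 0.297 CPM, and *Sulf2*, by its log2 fold change of 5.64. *Sva*, with 0 wt reads and 244 hnRNP L deficient reads, had a larger fitted fold change than *Zfp365*, but at a mean of 1.18 CPM against 6.01 CPM. No more than 2 wt reads were found for 20217 genes, whose median count over the 3 hnRNP L deficient libraries was 0 reads. *Zfp365* had the most among them, and only 2 of them, *Zfp365* and *Sva*, reached a mean of 1 CPM. These genes were named after their values had been seen.

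**Figure D2:**
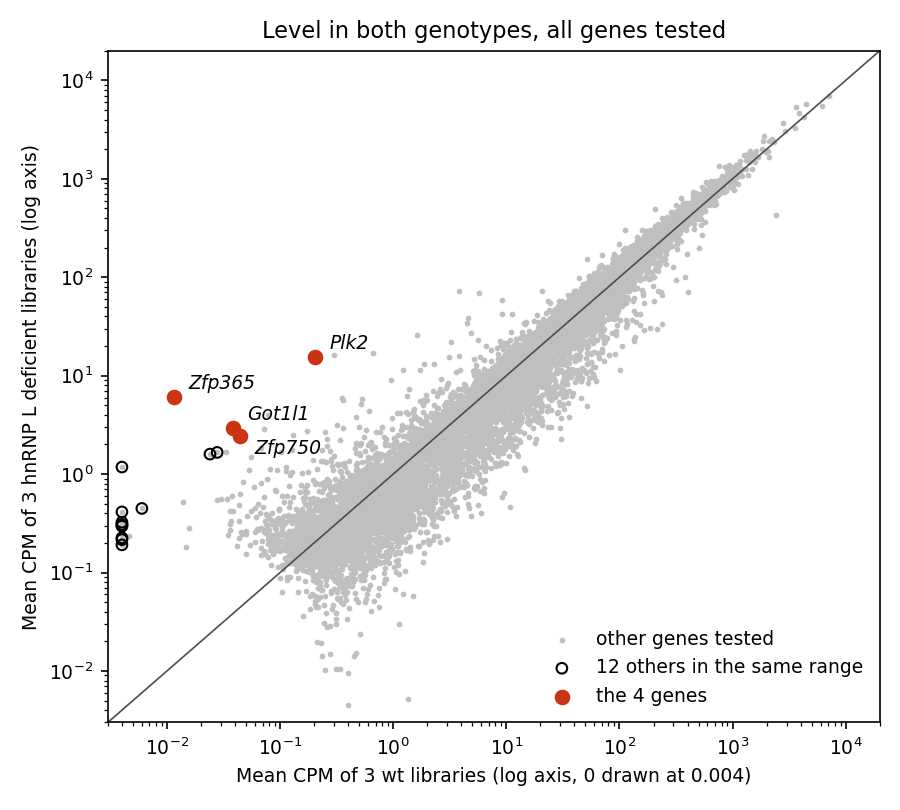
Mean CPM of the 3 hnRNP L deficient libraries (vertical, logarithmic) against that of the 3 wt libraries (horizontal, logarithmic, with 0 drawn at 0.004) for 14396 tested genes, with the line of equal levels. The 4 genes (red) lie above the 12 other genes of the same range (open circles), with hnRNP L deficient means from 2.46 to 15.4 CPM.

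Exon bins show where on the genes the reads lay. They are stretches of exon counted separately, and were counted in the 3 wt libraries and in hnRNP L deficient replicates 2 and 3. Since reads that span exons add to several bins, bin totals exceed gene totals. The files number the bins without coordinates. The bins were placed on GENCODE M21 exons because their number equals that of the flattened exons of *Zfp365* (10) and *Zfp750* (3) and of the exons of the reference transcript of *Plk2* (14) and *Got1l1* (9), with the bin number rising with the coordinate. On 121 minus-strand genes of 1 transcript, the median rank correlation of bin reads with exon length was 0.65 in this order and -0.0857 in the reverse, across bins that are not independent.

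Reads in the hnRNP L deficient libraries covered all 14 bins of *Plk2*, all 9 bins of *Got1l1* and all 3 bins of *Zfp750*, and 8 of 10 bins of *Zfp365*. For *Plk2* the 14 bins held between 74 and 350 reads in a library, and the top bin, the last exon, took 15.9% of the reads with 29.0% of the length. For *Got1l1* the 9 bins held between 33 and 82 reads, and none took more than 13.2%. The *Got1l1* bins were placed from 27197459 to 27202547, while the annotated gene reaches 27223828, and the rest of it holds no bin. Both genes were more even than most genes with as many bins and from 0.5 to 2 times the reads, in which the top bin took a median of 27.7% (81 genes) and 42% (52 genes). On the same scale *Zfp365* was less even than most, with 58.2% of the reads on its top bin against a median of 32.9% and an upper quartile of 48.6% (68 genes), and the 80.0% of its bins that were covered lay below the lower quartile of these genes. The top bin of *Zfp750* took 53.4% against a median of 70.7% (103 genes). These shares are not corrected for length, so the comparison also reflects how long the exons are. The top bin made up 56.2% of the length in *Zfp365*, 10.55% in *Got1l1* and 49.7% in *Zfp750*.

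*Zfp750* has a short first exon, which is untranslated, and a pair of long ones. The bins in the order of the coordinate, from the last exon to the first, held 77, 81 and 5 reads in hnRNP L deficient replicate 2 and 101, 145 and 14 reads in replicate 3. Their lengths are 1522, 1606 and 104 bp, and the share of the reads on each was between 0.894 and 1.4 times its share of the length. The short exon at chr11:121519230-121519333 was thus covered like the coding ones.

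The bins of *Zfp365* come from 4 annotated transcripts. Bin 2, of 2924 bp at chr10:67886168-67889091, contains the end of the coding part and most of the 3′ UTR. It held 267 and 343 reads in hnRNP L deficient replicates 2 and 3, which is 58.2% of the reads on 56.2% of the length of all 10 bins. Bins 4, 6 and 7 lie outside the reference transcript, so bin 2 makes up a larger share of that transcript. Bin 8, of 759 bp with 746 coding, held 83 and 122 reads, and bin 5, of 181 bp and all coding, held 41 and 70 reads. The annotated first exon of *Zfp365*-201 spans bins 9 and 10, with 7 and 25 reads on bin 9 and 7 and 18 reads on bin 10, so both ends of the transcript were covered. Without reads were bin 6 (73 bp) and bin 7 (133 bp), each found in only 1 annotated transcript other than the reference, and bin 4 (740 bp), likewise, held 5 and 4 reads. The reads of *Zfp365* therefore lay on the exons of the reference transcript, of which every bin had reads in both libraries.

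Up to its midpoint, counted from the 5′ end, the reference transcript held 57.7% of the hnRNP L deficient bin reads of *Zfp365*, 55.8% of *Plk2*, 52.5% of *Got1l1* and 54.8% of *Zfp750*, when reads are taken as even within a bin. For bins of at least 50 bp in the reference transcript, the share of the reads was 0.546 to 3.04 times the share of the length in *Zfp365*. It was 0.55 to 2.05 times in *Plk2*, 0.637 to 1.42 times in *Got1l1* and 0.894 to 1.4 times in *Zfp750*. In *Zfp365* both shares were taken over all 10 bins, including bins 4, 6 and 7 outside the reference transcript. Short bins are raised in this measure because any read that touches them counts. Across bins, reads of the 2 hnRNP L deficient libraries correlated with a Pearson r of 0.997 in *Zfp365* (10 bins), 0.954 in *Plk2* (14 bins), 0.782 in *Got1l1* (9 bins) and 0.958 in *Zfp750* (3 bins), values that share the bin lengths and are given as a description.

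**Figure D3:**
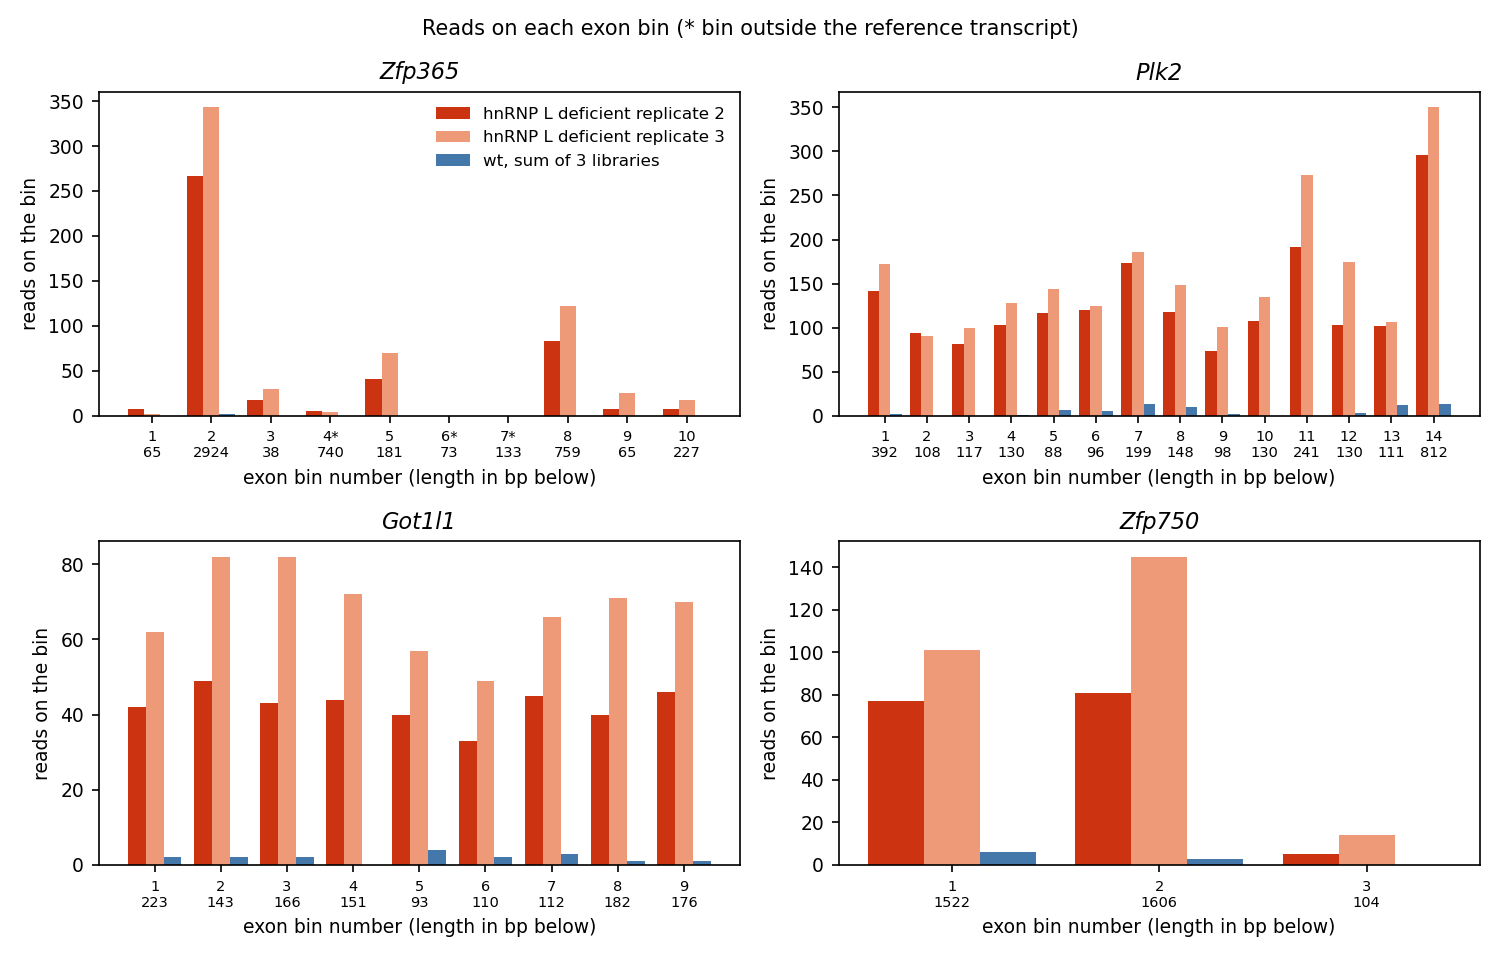
Reads (vertical axis, linear) on each exon bin (horizontal axis, numbered by coordinate with the length in bp) in hnRNP L deficient replicates 2 and 3 and summed over the 3 wt libraries. The reads cover all bins of *Plk2*, *Got1l1* and *Zfp750*, and bins 6 and 7 of *Zfp365*, which are outside the reference transcript, hold 0 reads.

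The few wt reads lay on fewer bins. For *Zfp365* both wt reads were on bin 2, the longest. For *Zfp750* wt replicate 2 had 3 reads on bin 2 and wt replicate 3 had 6 reads on bin 1. For *Got1l1* 17 wt bin reads were found on 8 of 9 bins, more than the 7 reads counted on the gene. For *Plk2* 67 wt bin reads were found on 10 of 14 bins, 54 of them in wt replicate 1, where bins 7, 8, 13 and 14 held 10, 10, 11 and 11 reads. Bins 2, 3, 10 and 11 of *Plk2* had 0 wt reads.

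Whether the share of a bin within its gene differed between genotypes is a measure that did not choose the genes, and was tested with edgeR's diffSpliceDGE over all units. Of the 36 bins 28 had enough reads, and 0 passed an adjusted p-value of 0.05, against 0.0288% of the 176996 bins tested over all genes. The 28 bins met the read minimum only through the hnRNP L deficient libraries, as none held more than 13 reads over the 3 wt libraries. Their 0 calls are therefore not comparable with the share over all bins. An unadjusted p-value under 0.05 was reached by 1 bin, and limma's diffSplice called 0 bins with 1 bin under 0.05 unadjusted. That bin in the edgeR test was bin 11 of *Plk2* at chr13:110399021-110399261, with 192 and 273 reads in the hnRNP L deficient libraries, 0 wt reads and a log2 change in usage of 4.53 (unadjusted p = 0.00967, adjusted p = 1.0). With 0 of 67 wt bin reads the share in wt cells had an exact upper bound of 5.36%, against 11.5% in hnRNP L deficient cells. In 5 of the 14 bins of *Plk2* the exact interval of the wt share left out the hnRNP L deficient share. Bin 10 was the other one with 0 wt reads, against 5.97%. Bins 7 and 8 went the other way, with 19.4% and 14.9% of the wt bin reads against 8.86% and 6.56%. Wt replicate 1 held 10 of the 13 wt reads on bin 7 and 10 of the 10 on bin 8. Bin 13 also went this way, with 12 of 67 wt bin reads, or 17.9% (exact interval 9.61% to 29.2%), against 5.13%. Of these 12 reads, 11 came from wt replicate 1. These intervals cover counting error and are too narrow where one read counts on several bins. They also pool the wt embryos, and 54 of the 67 wt bin reads came from wt replicate 1. No difference between the genotypes is therefore read from them. The number of bins of the 4 genes with an unadjusted p-value under 0.05 was 0 without wt replicate 1, 3 without wt replicate 2, 3 without wt replicate 3, 2 with a minimum of 20 reads and 1 in each of the other 4 alternatives, and 0 bins passed the adjusted threshold in any of them. For the other 3 genes the changes in usage ranged from -1.3 to 2.51 on the log2 scale, and with so few wt reads a difference in usage was not detectable at this depth.

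Neighbouring genes were compared to see whether genes beside the 4 genes differed as well. They are the 3 nearest protein-coding genes on each side and any overlapping gene, 25 in all, of which 17 were tested. Distances are between annotated gene limits, and that of *Got1l1* towards *Adrb3* and *Eif4ebp1* lies beyond its bins. In edgeR's quasi-likelihood test with Benjamini-Hochberg adjustment 1 rose and 2 fell at an adjusted p-value under 0.05, against 9.32% of all tested genes that rose and 9.85% that fell. *Eif4ebp1*, the gene of a repressor of translation, lies 36.5 kb from *Got1l1* and rose from 68.7 ± 6.83 CPM (SD, n = 3) to 87.1 ± 5.64 CPM (SD, n = 3). Its log2 fold change was 0.34 (standard error 0.094, adjusted p = 0.045 by edgeR). *Adgra2*, the gene of an adhesion receptor, lies 74.0 kb on the other side of *Got1l1* and fell from 3.1 ± 0.235 CPM to 0.875 ± 0.143 CPM, by 1.82 on the log2 scale (adjusted p = 0.012 by edgeR). *Rtkn2*, 66.9 kb from *Zfp365*, fell by 0.95 on the log2 scale (adjusted p = 0.039 by edgeR). These calls depended on the libraries included. *Eif4ebp1* was called in 0 of the 6 fits that left out a library, and without wt replicate 3, and without each of the hnRNP L deficient replicates 0 neighbours were called higher and 0 lower.

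The nearest neighbours were a mixed group. *Adrb3*, a beta-adrenergic receptor gene that lies 1.95 kb from the annotated limit of *Got1l1* and farther from its bins, had 0 wt reads and 2 reads in the hnRNP L deficient libraries. *Rab11fip1*, 22.8 kb on the other side, had a log2 fold change of 0.64 (adjusted p = 0.056 by edgeR). *Gapt*, 37.9 kb from *Plk2*, had 0.396, 21.2 and 2.9 CPM in the wt embryos against 0.388, 1.3 and 2.21 CPM with hnRNP L deleted, each in replicate order, so that the genotypes overlapped and wt replicate 2 set the wt mean. *Rab3c*, 114 kb from *Plk2*, had 0 reads in all 6 libraries, and *Egr2*, an immediate-early transcription factor gene 344 kb from *Zfp365*, had 0 wt reads and 7 reads in hnRNP L deficient libraries.

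*Zfp750* lies inside *Tbcd*, a tubulin folding cofactor gene on the opposite strand. *Tbcd* had 66.7, 71.0 and 76.1 CPM in the wt embryos against 80.4, 69.8 and 75.8 CPM with hnRNP L deleted, each in replicate order, a log2 fold change of 0.08 (standard error 0.084, adjusted p = 0.52 by edgeR). The genotypes overlapped in *Tbcd*, while their gap in *Zfp750* was fixed by the choice of the gene. In wt, 13490 reads were counted on *Tbcd* and 9 on *Zfp750*, the latter low by the same choice. Whether reads of *Tbcd* were counted on *Zfp750* was not tested. The libraries were made with a stranded kit, but the strand setting of the counting is not given in the sources used here.

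**Figure D4:**
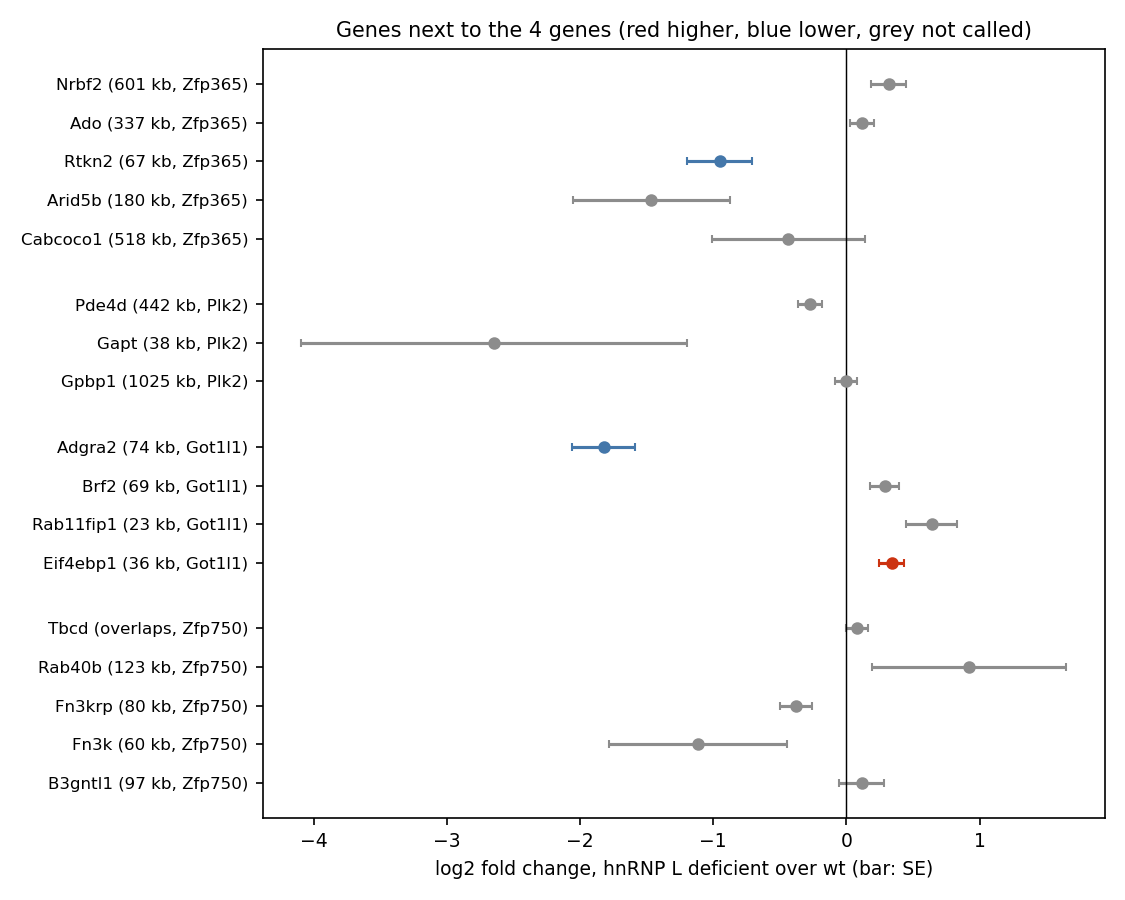
Log2 fold change of hnRNP L deficient over wt (horizontal, bars are the standard error) of the 17 tested genes next to the 4 genes, with their distance and the gene they neighbour. *Eif4ebp1* is called higher (red), *Rtkn2* and *Adgra2* are called lower (blue), and the others are not called (grey).

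Genes that share a role with the 4 genes were followed through 8 lists. Of 65 different genes tested in them 26 rose and 3 fell, where 9.32% of all tested genes rose and 9.85% fell. The 34 p53 targets, which leave out the 4 genes, made up most of this, as 23 rose and 1 fell, 10 did not pass and the median log2 fold change was 0.79, against -0.03 over all tested genes. The study had already reported a rise of p53 targets from these same libraries, *Cdkn1a*, *Zmat3* and *Ccng1* among them. The count is therefore not an independent result. The largest rises belonged to *Eda2r*, a receptor of the tumor necrosis factor family (0.297 ± 0.0407 to 16.1 ± 1.74 CPM, log2 fold change 5.75, adjusted p = 0.000193 by edgeR), and *Sulf2*, a heparan sulfate sulfatase (0, 0.15 and 0.0826 CPM in the wt embryos against 3.34, 3.5 and 5.22 CPM with hnRNP L deleted, each in replicate order, log2 fold change 5.64, adjusted p = 0.0125 by edgeR). The gene that fell was *Sesn1*, by 0.75 on the log2 scale (adjusted p = 0.011 by edgeR). *Trp53* itself had a log2 fold change of 0.14 (adjusted p = 0.26 by edgeR), and its wt and hnRNP L deficient libraries overlapped. The number that rose was 23 without wt replicate 1 and 24 without wt replicate 2, but 2 without wt replicate 3, and 7, 4 and 4 without hnRNP L deficient replicates 1, 2 and 3, while all genes called higher fell from 1341 to 5, 15, 8 and 7 in these 4 fits.

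Among the other polo-like kinases, *Plk3*, which shares the stress role of *Plk2*, rose from 0.798 ± 0.172 CPM (SD, n = 3) to 2.99 ± 0.405 CPM (SD, n = 3). Its log2 fold change was 1.9 (standard error 0.27, adjusted p = 0.014 by edgeR). *Plk1*, the kinase of mitosis, had a log2 fold change of 0.19 (adjusted p = 0.20 by edgeR) and *Plk4*, the kinase that starts centriole duplication, of -0.09 (adjusted p = 0.38 by edgeR). *Plk5* was not tested and had means of 0.03 and 0.131 CPM. Of the 8 other genes of centriole duplication 1 fell, *Stil*, by 0.33 on the log2 scale (adjusted p = 0.032 by edgeR), and 7 did not pass, with *Cenpj*, a substrate of Plk2, at a log2 fold change of -0.38 (adjusted p = 0.057 by edgeR). *Sass6*, *Cep152*, *Cep192*, *Pcnt*, *Cep63* and *Cep135* had log2 fold changes between -0.18 and 0.08.

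The enzymes and carriers of the malate-aspartate shuttle include *Got1*, the closest relative of *Got1l1* among them. *Got1* rose from 44.1 ± 11.1 CPM (SD, n = 3) to 98.8 ± 4.27 CPM (SD, n = 3), a log2 fold change of 1.16 (adjusted p = 0.014 by edgeR). *Mdh2*, the mitochondrial malate dehydrogenase, also rose, by a log2 fold change of 0.36 (adjusted p = 0.023 by edgeR). The other 5 genes did not pass, and *Got2*, *Mdh1*, *Slc25a11*, *Slc25a12* and *Slc25a13* had log2 fold changes between -0.18 and 0.25. Of the enzymes of D-amino acids, *Srr*, the serine racemase, had a log2 fold change of -0.41 (adjusted p = 0.12 by edgeR), *Ddo* had 0 reads in all libraries and *Dao* a mean of 0.00893 CPM in hnRNP L deficient cells. For this list 0 genes were called by edgeR, DESeq2 or limma-voom, and 1 had an unadjusted p-value under 0.05.

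Most other genes of epidermal differentiation, the role of *Zfp750*, had too few reads for a test. Of 20 matched genes 5 were tested, and edgeR called 0, with 1 unadjusted p-value under 0.05, while DESeq2 called 1 and limma-voom 2. Without a read in any library were 7 genes, among them *Trp63*, the regulator upstream of *Zfp750*, and the keratins *Krt5* and *Krt14*. *Grhl1*, an epidermal transcription factor gene, had 0.486, 1.05 and 0.482 CPM in the wt embryos against 1.24, 1.18 and 1.23 CPM with hnRNP L deleted, so that the genotypes did not overlap (log2 fold change 0.86, adjusted p = 0.15 by edgeR). *Lor*, the gene of a protein of the cornified envelope, was not tested, with 0 wt reads and levels of 0.0777, 0.0306 and 0.0938 CPM where hnRNP L was deleted. *Grhl1* and *Lor* were named after their values had been seen. *Klf4*, a partner of *Zfp750* in the epidermis, had 0.702, 3.65 and 0.674 CPM in the wt embryos against 0.0311, 0.184 and 0.348 CPM with hnRNP L deleted, each in replicate order, a log2 fold change of -3.13 (adjusted p = 0.065 by edgeR). Of the co-regulators of *Zfp750*, *Ctbp2* rose by a log2 fold change of 0.48 (adjusted p = 0.031 by edgeR), and *Kdm1a*, *Rcor1* and *Ctbp1* had 0.15, -0.06 and 0.04. *Disc1*, the partner of *Zfp365*, fell from 1.06 ± 0.499 CPM to 0.247 ± 0.11 CPM, by 2.1 on the log2 scale (adjusted p = 0.036 by edgeR), and the centrosome genes *Ndel1*, *Nde1* and *Pafah1b1* had log2 fold changes of -0.01, -0.16 and 0.03. Of the genes named here as risen or fallen, from *Plk3* to *Disc1*, each was called in 1 or 2 of the 6 fits that left out a library, and was not called without wt replicate 3 or any 1 hnRNP L deficient replicate. *Disc1* was also not called without wt replicate 2, and its adjusted p-value from edgeR, DESeq2 or limma-voom was between 0.00418 and 0.147 over all alternatives.

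**Figure D5:**
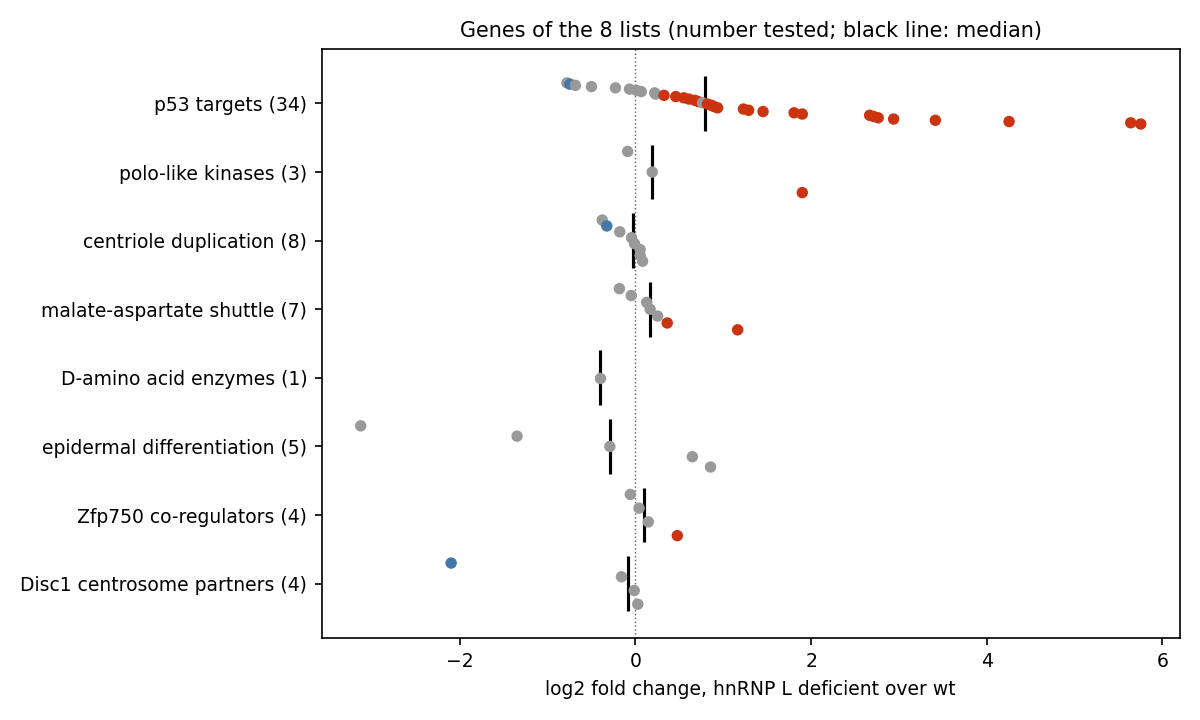
Log2 fold change of hnRNP L deficient over wt (horizontal) for the tested genes of the 8 lists (vertical, with the number tested), in red where called higher, blue where called lower and grey where not called, with the median as a black line. The median is 0.79 for the p53 targets and between -0.41 and 0.19 for the other 7 lists.

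Markers of the tissues in which the 4 genes are best known were also followed. The counts of calls here and in the other cell types stand against 9.32% of all tested genes that rose and 9.85% that fell. For 10 neuron markers the sum was 2.79 to 4.38 CPM in wt and 3.41 to 3.77 CPM in hnRNP L deficient libraries, most of it *Tubb3*, and 0 of 2 tested were called by edgeR, DESeq2 or limma-voom, with 0 unadjusted p-values under 0.05. For 10 germ cell markers it was 3.53 to 4.29 and 2.55 to 2.85 CPM, and 6 of them, *Sycp1*, *Tnp1*, *Prm1*, *Prm2*, *Acrv1* and *Spata16*, had 0 reads in all libraries. Of the 3 tested, 0 were called by the same 3 tools, with 0 unadjusted p-values under 0.05. For 6 epithelial markers the sum was 4.59 to 14.2 and 2.2 to 2.8 CPM, and 2 of 3 tested fell. Epithelial reads in wt replicate 2 were mostly on *Krt18* (8.59 CPM) and *Cdh1* (4.2 CPM), so that markers of these tissues were not all near 0 in wt cells. None of these sums was higher in all hnRNP L deficient than in all wt libraries.

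Markers of other cells of the liver mostly had lower sums in hnRNP L deficient libraries. Summed hepatoblast markers had 109 to 230 CPM in wt and 24.2 to 72.4 CPM in hnRNP L deficient libraries (1 of 6 fell), endothelial markers 33.9 to 80.5 and 18.2 to 21.8 CPM (3 of 6 fell), macrophage markers 20.2 to 90.7 and 5.44 to 9.66 CPM (4 of 7 fell) and stromal markers 10.3 to 18.9 and 7.16 to 8.75 CPM (1 rose and 1 fell of 4 tested). The stromal sum followed *Pdgfrb*, a receptor gene of mesenchymal cells, with 7.26, 15.7 and 12.5 CPM in the wt embryos against 2.53, 2.56 and 1.96 CPM with hnRNP L deleted, while *Col1a2*, a collagen gene, rose from 2.49, 1.92 and 2.49 CPM to 4.44, 5.19 and 5.44 CPM and the median log2 fold change of the 4 tested stromal genes was 0.15. Erythroid markers overlapped, at 1667 to 2103 and 1376 to 2229 CPM (1 of 7 fell), and 7 genes of the sorted fraction summed to 1498 to 1858 and 1289 to 1414 CPM (4 of 7 fell). Of the markers of the sorted-out lineages 1 was tested and 0 were called by edgeR, with 1 unadjusted p-value under 0.05, 0 calls by DESeq2 and 1 by limma-voom. The part of such shifts in cell types in the levels of the 4 genes was not tested.

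Finally, for each gene the tested genes with a wt mean under 1 CPM were ranked by their likeness over the 6 libraries, as the Pearson correlation of log2 of CPM plus 0.1. Of 2652 genes compared, between 70 and 95 had a correlation over 0.95 with one of the 4 genes, since the measure mostly reads the gap between 3 and 3 libraries. For *Zfp365* the nearest were *1700003M07Rik* (r = 0.999), *Inka2* (0.999) and *Eda2r* (0.998), and *Inka2* and *Eda2r* were also first and second for *Got1l1* (0.998 and 0.997), before *Gm14167* (0.997). For *Plk2* they were *Etv4* (0.998), *P2rx6* (0.997) and *1700007K13Rik* (0.996), of which *P2rx6* and *1700007K13Rik* had wt reads in wt replicate 1 only, the library in which *Plk2* was also highest. For *Zfp750* they were *Lif* (0.999), *Gm5529* (0.997) and *Tnfsf4* (0.997), and for *Lif*, the gene of a cytokine, wt replicate 1 was lowest and wt replicate 3 highest as in *Zfp750*. Since these genes were picked by likeness over the same 6 libraries, shared wt patterns follow from the choice. The wt means were also low, at 0.03 CPM for *P2rx6*, 0.024 CPM for *1700007K13Rik* and 0.0811 CPM for *Lif*. Among the 4 genes the correlation was between 0.942, for *Plk2* with *Zfp750*, and 0.998, for *Zfp365* with *Got1l1*. The 4 genes were chosen on the gap between the genotypes, so nothing is read from these values.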

How the data were processed

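Gene counts of 6 libraries and exon bin counts of 5 were used. The authors aligned paired reads of stranded mRNA libraries to GRCm38 with Tophat (TopHat2 2.0.10 in the submitters' processing notes), obtained gene counts with HTSeq (Ensembl genes) and exon bin counts with dexseq_count, and deposited both as raw counts. The Ensembl release and the strand setting are not given in the sources used here. For hnRNP L deficient replicate 1, exon bins were not analysed here.

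The gene test was edgeR 4.0.16 (R 4.3.3) with TMM factors, its default filter (14396 of 38293 genes kept), a robust quasi-likelihood fit and Benjamini-Hochberg adjustment, called at an adjusted p-value under 0.05. A standard error is the log2 fold change over the square root of F. For exon bins averaging 10 or more reads, usage was tested with diffSpliceDGE. DESeq2 1.42.0 and limma 3.58.1 served as alternatives. The gene and exon bin tests were checked on simulated data. Symbols were matched for 94.9% of genes, and positions are from GENCODE M21.

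The 4 genes and all lists (8 of roles, 10 of cell types: neuron, germ cell, epithelial, hepatoblast, stromal, endothelial, macrophage, erythroid, sorted fraction, sorted-out lineages) were chosen with earlier results of these data known. Named besides them were *Hnrnpl*, *Trp53*, all genes of lists of up to 8 genes, the 2 largest rises and falls called in longer lists, the neighbours, and the 3 genes most like each of the 4 genes. Depth of 55952160 to 76157226 reads makes 3 reads at most 0.054 CPM. Embryos were not paired, as the labels do not say what the embryo numbers in the titles stand for.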

Additional observations from a re-analysis of the deposited data

How the results depend on the processing

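The 4 genes kept a positive log2 fold change under every alternative, and 115 of 182 recomputed values stayed within the spread between replicates or within 1.5 times a count. Their size depended on how reads near 0 are treated. With a prior count of 5 the log2 fold change was 6.12 for *Zfp365*, 4.73 for *Got1l1* and 4.38 for *Zfp750*, and with a prior count of 0.5 it was 8.35 for *Zfp365*. DESeq2 gave 9.15 for *Zfp365*, and limma-voom with sample weights 9.16 for *Zfp365* and 7.7 for *Plk2*. With each library left out in turn it ranged from 8.29 to 9.32 for *Zfp365*, 5.76 to 8.13 for *Plk2*, 6.01 to 6.53 for *Got1l1* and 5.16 to 6.47 for *Zfp750*.

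Calls depended more on the libraries included. With each left out in turn, 5 to 2312 genes were called higher and 0 to 2479 lower, of the role lists 2 to 30 higher and 0 to 6 lower, of the p53 targets 2 to 24 higher and 0 to 2 lower, and of the neighbours 0 to 2 higher and 0 to 3 lower. DESeq2 called 2064 genes higher and 2236 lower, and limma-voom 2537 and 2751. Both called 6 genes of the role lists lower, 2 p53 targets lower and 2 neighbours higher. With total counts 5 genes of the role lists and 2 p53 targets were called lower and 0 neighbours higher, and 2 p53 targets were called lower with median-of-ratios factors and with at least 1 CPM in 3 libraries. The cause was not tested. In all 8 alternatives 0 exon bins of the 4 genes were called. No paired analysis was made, because the labels do not say what the embryo numbers in the titles stand for. The embryo numbers in the titles share their first part between the genotypes in 1 case only, wt replicate 1 and hnRNP L deficient replicate 1. Whether that part stands for a litter is not stated. With 2 to 35 wt reads per gene over 3 libraries, depth limits the wt level of each gene and any comparison of its wt exon usage.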
